A study of Mus musculus with 2 samples.

Results

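Galectins are carbohydrate-binding proteins and tetraspanins are membrane proteins with four-pass topology that organise their neighbours in the membrane. The transcripts described here are those of 3 galectins (Lgals1, Lgals3 and Lgals9) and 6 tetraspanins (Cd9, Cd37, Cd53, Cd63, Cd81 and Cd82), 9 of the 48709 genes in the deposited matrices, each found on 1 row by its symbol. The genes were chosen by their measured UMI levels across cell types and between these 2 libraries, in earlier results of the same data, so their levels and their differences between libraries are given as descriptions and support no claim about the list. The cells came from cochleae of C57BL/6J/B6 mice of the genotype CX3CR1+/GFP Thy1+/YFP, with males and females pooled, and were enriched for CD11b, a surface protein of myeloid cells. There was 1 library of cochleae with an implanted electrode and 1 library of non-implanted cochleae, taken 33 days after implantation per the series design text. The design text describes implanted and contralateral cochleae, while the label of the second library says only that it was not implanted. The title names both drug-eluting and standard electrodes, and the labels used here do not say which kind was implanted, how many animals were pooled, or what age they had at implantation. Both libraries carry the same reporter alleles and the same bead selection, so the values describe selected cells and not the whole cochlea.

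Galectins bind beta-galactosides on glycoproteins, can be secreted or stay in the cytoplasm, and crosslink receptors when they act outside the cell. Galectin-3, the product of Lgals3, is abundant in macrophages, gathers at damaged lysosomes and can bind the phagocyte receptors TREM2 and MERTK. Tetraspanins gather integrins, proteases, immunoglobulin-family proteins and MHC molecules into membrane microdomains, and CD9, CD63 and CD81 are common on extracellular vesicles. CD63 also marks late endosomes, lysosomes and the primary granules of neutrophils, while CD37 and CD53 are found mainly on leukocytes.

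On GRCm38 with the GENCODE M21 annotation, Lgals1 lies at chr15:78926725-78930465 on the plus strand, Lgals3 at chr14:47367751-47386160 on the plus strand and Lgals9 at chr11:78962974-78984946 on the minus strand. Cd9 lies at chr6:125460266-125494791, Cd37 at chr7:45233632-45239115, Cd53 at chr3:106759921-106790149 and Cd82 at chr2:93419111-93463140, all on the minus strand. Cd63 lies at chr10:128900989-128912822 and Cd81 at chr7:143052739-143067934, both on the plus strand. Genes on the other strand overlap Cd9 (Gm28809 and Gm26728), Cd37 (Tead2), Cd81 (R74862) and Cd82 (Gm10804), and the sources used here do not state the strand setting of the counting. The pseudogene row Cd9-ps held 29 UMIs in the cells kept, and the rows Cd63-ps, Lgals1-ps1 and Lgals1-ps2 held 0.

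The promoter windows of 4 genes are printed because their levels set macrophage clusters apart below. Lgals3, Cd9 and Cd63 were high in the implanted cells of 1 macrophage-like cluster, and Cd81 was low there. Each line holds the 250 bases before the RefSeq transcription start (RefSeq, GRCm38.p6), written along the gene's own strand, with the GC box GGGCGG or its reverse complement CCGCCC in capitals.
Lgals3 (chr14:47373610-47373859, plus strand): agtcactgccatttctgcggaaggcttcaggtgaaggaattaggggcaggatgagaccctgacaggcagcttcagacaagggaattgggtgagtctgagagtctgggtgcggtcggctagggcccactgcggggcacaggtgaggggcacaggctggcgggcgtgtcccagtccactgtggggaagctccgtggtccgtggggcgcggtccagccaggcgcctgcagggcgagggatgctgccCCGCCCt
Cd9 (chr6:125494761-125495010, minus strand): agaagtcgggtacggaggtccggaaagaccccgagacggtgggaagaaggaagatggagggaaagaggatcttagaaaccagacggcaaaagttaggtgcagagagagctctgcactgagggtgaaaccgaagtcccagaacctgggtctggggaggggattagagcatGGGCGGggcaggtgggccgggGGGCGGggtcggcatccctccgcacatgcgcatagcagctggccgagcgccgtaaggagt
Cd63 (chr10:128909095-128909344, plus strand): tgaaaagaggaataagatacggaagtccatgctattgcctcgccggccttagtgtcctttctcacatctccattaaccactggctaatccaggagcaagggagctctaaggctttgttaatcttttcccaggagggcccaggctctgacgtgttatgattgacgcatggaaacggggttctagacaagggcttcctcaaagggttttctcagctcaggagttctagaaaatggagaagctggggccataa
Cd81 (chr7:143052500-143052749, plus strand): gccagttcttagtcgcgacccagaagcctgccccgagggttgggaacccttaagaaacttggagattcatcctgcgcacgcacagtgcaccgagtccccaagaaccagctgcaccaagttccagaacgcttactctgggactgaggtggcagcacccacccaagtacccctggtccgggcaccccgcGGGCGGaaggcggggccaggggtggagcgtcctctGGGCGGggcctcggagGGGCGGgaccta
The RefSeq promoter table held 8 of the 9 genes, not Lgals1. A GC box was found at 1 place in the Lgals3 window, 2 in the Cd9 window, 3 in the Cd81 window and 0 in the Cd63 window, against a share of 32.7% of all 32851 promoter windows of that length that hold at least 1. The E-box CACGTG, which 6.02% of all windows hold, was found at Cd37 but not in the 4 windows printed. The AP-1 motif TGAGTCA or TGACTCA is held by 4.46% of all windows and the TATA box TATAAA or TTTATA by 12.4%, and neither was in these 4 windows. Both strands were searched, the motifs do not overlap each other in these windows, and a match is a description of letters only. The Lgals3 and Cd63 windows lie inside the gene spans given above, and windows before the outer starts of those spans were not searched.

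After filtering, 3065 implanted cells with 18469428 UMIs and 3411 non-implanted cells with 20433645 UMIs remained, with medians of 4239 and 4145 UMIs per cell, and the libraries shared 5 of the kept cell barcodes. Clusters were named from marker lists, and a name ends in "-like" since it rests on transcripts. The classes were neutrophil-like (1474 implanted and 1713 non-implanted cells), granulocyte precursor-like (821 and 1048), macrophage-like (274 and 238), monocyte-like (272 and 226), erythroid-like (78 and 41), B cell-like (40 and 32), osteoclast-like (12 and 28) and microglia-like (13 and 9). Clusters 14 and 15 stayed unnamed. Ptprc, the gene of the leukocyte antigen CD45, was detected in every class, but the bead selection could not be checked by its own gene: of 2 rows under the symbol Itgam, 1 was listed at 0 and the other held 293 UMIs. With 1 library per group no test was possible, so levels are UMIs per 1e6 (CPM) summed over the cells of a class, with exact 95% Poisson intervals. These intervals, and the exact ones of ratios, cover counting error only, not the spread between animals, and they understate the error for genes whose UMIs sit in a handful of cells.

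Lgals1 encodes galectin-1, a dimer that crosslinks glycoproteins of leukocytes. It was found in mononuclear phagocytes and was close to absent from granulocytes. In neutrophil-like cells it had 5.76 CPM (3.83 to 8.32) in the implanted and 2.01 CPM (1.00 to 3.59) in the non-implanted library, and in granulocyte precursor-like cells 12.9 and 3.68 CPM. These levels rested on 28, 11, 101 and 37 UMIs. Monocyte-like cells held 438 CPM (408 to 469) and 449 CPM (416 to 484), 76.1 and 224 times the neutrophil-like level. Osteoclast-like cells were highest, at 664 and 907 CPM, ahead of macrophage-like cells at 574 and 325 CPM. In B cell-like cells the libraries stood apart, at 204 and 562 CPM, on 36 and 98 UMIs, of which 1 cell held 44.4% and 20.4%. The ranges of the libraries overlapped for the neighbouring classes macrophage-like, monocyte-like and B cell-like, so those 3 have no order.

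Lgals3 was measured in every class, and the class that stood highest differed between the libraries. Monocyte-like cells held 2356 CPM (2286 to 2428) in the implanted and 2219 CPM (2145 to 2296) in the non-implanted library. Macrophage-like cells held 3432 CPM (3346 to 3520) and 653 CPM (612 to 697). The monocyte-like level was thus 3.40 times the macrophage-like level (3.16 to 3.66) in the non-implanted library and 0.687 times (0.660 to 0.714) in the implanted one. The macrophage-like class includes cluster 17, described below, with 63 implanted and 3 non-implanted cells and an implanted level of 6874 CPM. Implanted cells of macrophage-like clusters 9 and 12 held 1250 and 814 CPM, under the monocyte-like level. Neutrophil-like cells held 693 and 612 CPM, precursor-like cells 405 and 452, osteoclast-like cells 948 and 624, and microglia-like cells 519 and 463. B cell-like cells, at 45.3 and 178 CPM, and erythroid-like cells, at 61.6 and 15.3 CPM, were lowest in both libraries.

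Lgals9 encodes galectin-9, a ligand of the receptor TIM-3, and had its highest mean level in B cell-like cells, which overlapped other groups. It had 306 and 172 CPM in B cell-like cells, 126 and 151 in neutrophil-like, 106 and 106 in monocyte-like and 103 and 98.9 in macrophage-like cells, then 53.0 and 53.9 in precursor-like cells. The non-implanted B cell-like interval (116 to 246 CPM) held the neutrophil-like level, and unnamed cluster 15 (180 and 113 CPM) overlapped the B cell-like range. Osteoclast-like cells were lowest, with 7.38 CPM (0.894 to 26.7) and 12.2 CPM (4.89 to 25.1), on 2 and 7 UMIs.

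Cd9, Cd63 and Cd81, the tetraspanins known from extracellular vesicles, were low in monocyte-like cells and present in macrophage-like cells. Cd63 had 5.49 CPM (2.63 to 10.1) and 3.95 CPM (1.45 to 8.59) in monocyte-like cells, against 528 and 269 CPM in macrophage-like cells, a ratio of 96.2 (52.1 to 201) in the implanted and 68.2 (31.0 to 187) in the non-implanted library. Cd81 had 2.74 and 5.26 CPM in monocyte-like cells and 283 and 333 CPM in macrophage-like cells, a ratio of 103 (43.8 to 319) and 63.3 (31.9 to 148). Cd9, which binds integrins and the growth factor precursor HB-EGF, had 45.0 and 42.8 CPM in monocyte-like cells and 953 and 360 CPM in macrophage-like cells, a ratio of 21.2 (17 to 26.8) and 8.42 (6.5 to 11.1). In each of these 6 comparisons the intervals of the classes did not overlap. The granulocyte transcript S100a8 differed in the same direction between the classes, and its values stand with the macrophage-like clusters below.

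These genes also had high levels outside the macrophage-like class. Cd9 was high in neutrophil-like cells, at 1220 CPM (1189 to 1251) and 1273 CPM (1243 to 1303), 27.1 and 29.8 times the monocyte-like level. Cd63 was highest in osteoclast-like cells, at 742 CPM (643 to 852) and 586 CPM (525 to 652), cells that are rich in lysosomes, although the implanted interval overlapped that of microglia-like cells (644 CPM, 499 to 818). Cd81 was highest in microglia-like cells, at 1212 CPM (1010 to 1443) and 1260 CPM (1023 to 1536), with no other class near it in either library. The microglia-like level of Cd9 was 1577 CPM in the implanted and 656 CPM in the non-implanted library, from 13 and 9 cells, and 1 implanted cell held 26.2% of those UMIs.

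The leukocyte tetraspanins Cd37 and Cd53 were lowest in erythroid-like cells. Cd37, which is known from B cells, stood at 634 CPM (522 to 763) and 550 CPM (446 to 672) in B cell-like cells, 4.03 and 3.39 times the neutrophil-like level of 157 and 162 CPM, and microglia-like cells followed with 279 and 167 CPM. Cd53 had 586 and 595 CPM in neutrophil-like, 502 and 520 in monocyte-like, 452 and 386 in microglia-like and 405 and 379 in macrophage-like cells. In erythroid-like cells Cd53 stood at 22.6 CPM (13.4 to 35.7) and 9.54 CPM (3.10 to 22.3), and Cd37 at 10.1 and 30.5 CPM. Cd53 was also low in osteoclast-like cells, at 48.0 and 108 CPM. Cd82, a tetraspanin linked to integrin and receptor trafficking, went the other way: erythroid-like cells were highest, at 239 CPM (206 to 275) and 193 CPM (157 to 234), and monocyte-like cells lowest, at 25.2 and 22.4 CPM.

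**Figure D1:**
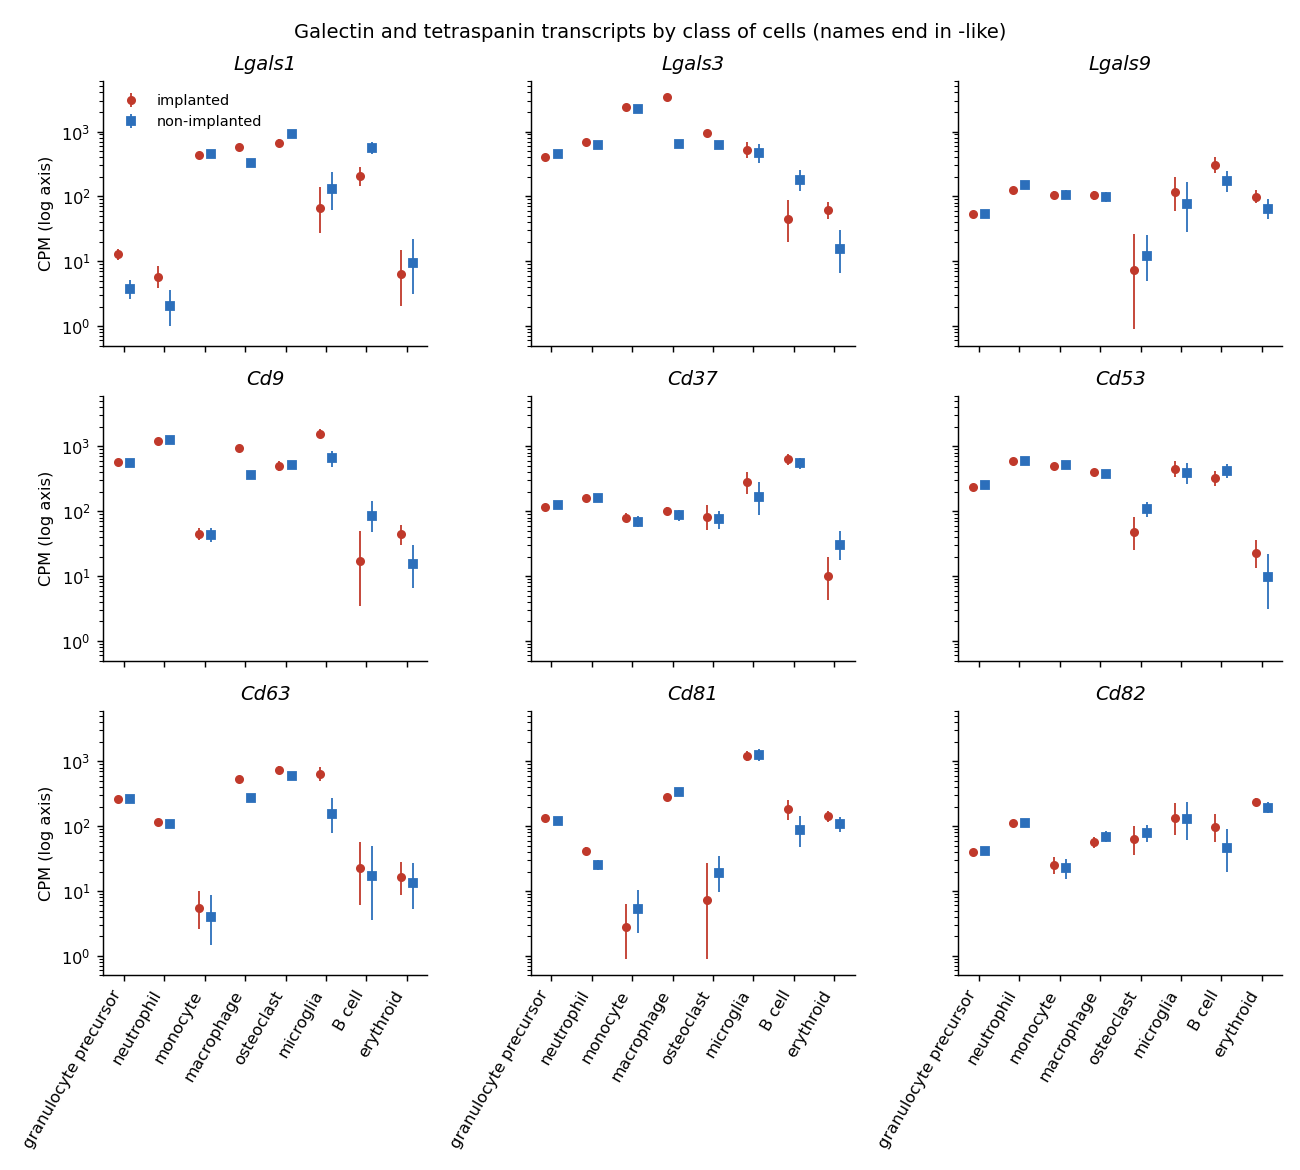
Each panel plots the level of 1 gene as CPM on a log axis for 8 classes of cells, with circles for the implanted and squares for the non-implanted library and bars for exact 95% Poisson intervals. Monocyte-like cells are lowest for Cd63 (5.49 and 3.95 CPM) and Cd81 (2.74 and 5.26 CPM), and the libraries separate for Lgals3 in macrophage-like cells (3432 and 653 CPM).

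The members were also compared across cell types with the 9420 genes of at least 200 UMIs, by the correlation of log2(CPM + 5). The 16 points were the groups with at least 20 cells in each library: neutrophil-like, granulocyte precursor-like, monocyte-like, macrophage-like, erythroid-like and B cell-like cells and the unnamed clusters 14 and 15. Osteoclast-like and microglia-like cells were too few and did not enter. The points share libraries and depth, so the values are descriptions. The pattern of Cd53 was most like those of Lrrfip1 and Ptprc (Pearson r 0.98 and 0.98), and that of Lgals3 most like that of the lysozyme gene Lyz2 (0.94). Cd9 was most like Hdc, the histidine decarboxylase gene (0.94), Lgals1 most like Atp13a2 (0.97), and Cd37 most like Atg16l2 (0.94). Lgals9 was most like Hspa4 (0.91), Cd82 most like Optn (0.90), Cd63 most like Ankrd46 (0.87) and Cd81 most like Erc1 (0.73). Among the members themselves, Cd9 and Cd63 were most alike (0.86), followed by Lgals3 and Cd53 (0.74), and Lgals3 and Cd82 were least alike (-0.70).

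Neutrophil-like and precursor-like cells were the most numerous, and their clusters were ordered by known stage markers rather than by the members. Cluster 8 was led by Elane, Prtn3 and Mpo, genes of primary granules, cluster 7 by cell-cycle genes such as Top2a, and cluster 1 by genes that include Ly6g and Ltf, a gene of secondary granules that clusters 7 and 5 also held. Cluster 5 lay between these and mature cells in the secondary granule gene Camp (36501 and 37930 CPM) and in Retnlg (10839 and 12337 CPM), a gene of mature neutrophils. Cluster 2 had the most Retnlg, and clusters 3, 4 and 6 had the most Il1b. Along this order the tetraspanins went in opposite directions. In cluster 8 Cd63 was at 375 and 357 CPM, in cluster 3 at 71.3 and 65.8 CPM, and in cluster 6 at 123 and 88.3 CPM. Cd81 was at 185 and 147 CPM in cluster 8, 97.8 and 87.7 CPM in cluster 5, and 7.75 and 10.0 CPM in cluster 2. Of the steps between neighbouring clusters, that from cluster 5 to cluster 2 was the largest for Cd81 in both libraries.

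Cd9, Cd53, Cd82 and Lgals9 were higher in mature clusters. From cluster 8 to cluster 6, Cd9 went from 524 and 503 CPM to 1823 and 1737 CPM, a ratio of 3.48 (3.18 to 3.81) and 3.45 (3.18 to 3.74). Cd53 went from 153 and 169 CPM to 779 and 735 CPM, a ratio of 5.11 and 4.35. Cd82 went from 23.9 and 34.1 CPM to 185 and 166 CPM, a ratio of 7.77 and 4.87. Lgals9 went from 57.7 and 51.1 CPM to 221 and 274 CPM, a ratio of 3.83 and 5.37. In all 4 genes the intervals of clusters 8 and 6 lay apart in both libraries. Cd37 differed less, from 109 and 131 CPM to 156 and 171 CPM.

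Lgals3 had its highest levels in the middle of the order. It stood at 181 and 198 CPM in cluster 8, 248 and 242 in cluster 7, 775 and 771 in cluster 1, 814 and 696 in cluster 5, 808 and 762 in cluster 2, and 419 and 381 in cluster 6. Both libraries gave this shape. Lgals1 was near the counting limit throughout, except in cluster 8 with 89 and 29 UMIs (44.2 and 12.7 CPM), where 1 implanted cell held 48.3% of the UMIs.

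**Figure D2:**
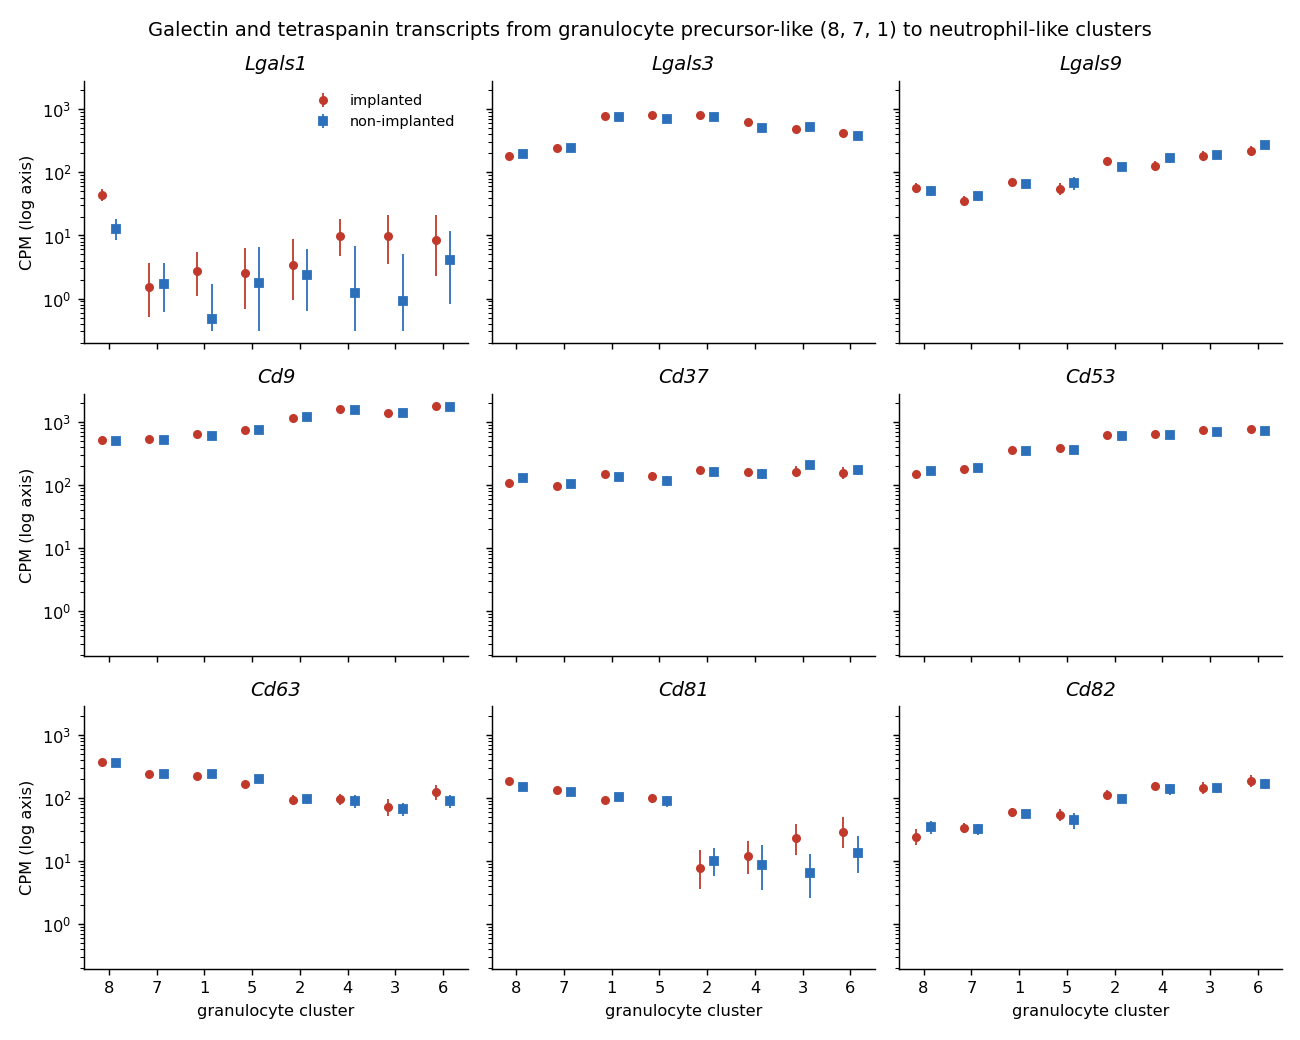
Each panel plots the level of 1 gene as CPM on a log axis for 8 granulocyte clusters, from precursor-like clusters 8, 7 and 1 to neutrophil-like clusters, with circles for implanted, squares for non-implanted and bars for exact 95% Poisson intervals. Cd81 drops between cluster 5 (97.8 and 87.7 CPM) and cluster 2 (7.75 and 10.0 CPM), while Cd9 reaches 1823 and 1737 CPM in cluster 6.

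Between the libraries, granulocytes differed little. A gene with at least 20 UMIs was called higher or lower where the log2 ratio of CPM plus 5, implanted over non-implanted, passed 1.5-fold. In granulocyte precursor-like cells 1 of 9 members was higher and 0 lower, with 1.0% of all 11160 genes higher and 0.179% lower. That member was Lgals1, at 12.9 against 3.68 CPM, with 42.6% of the implanted UMIs in 1 cell. Without the cell that held the most in each library, Lgals1 stood at 7.40 and 3.09 CPM. The median log2 ratio of the members was -0.02, beside 0.05 for all genes.

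In neutrophil-like cells 2 of 9 members were higher and 0 lower, with 1.68% of 9061 genes higher and 0.607% lower. Cd81 had 42.1 CPM (36.6 to 48.3) in the implanted and 25.4 CPM (21.3 to 29.9) in the non-implanted library, a ratio of 1.66 (1.33 to 2.08). Cluster 5, the neutrophil-like cluster with the most Cd81, held 316 implanted and 201 non-implanted cells, and within it Cd81 had 97.8 and 87.7 CPM. Cd81 passed the bound within cluster 3 (22.7 and 6.31 CPM) and cluster 6 (29.2 and 13.4 CPM), on few UMIs. In clusters 2, 4 and 5 no member passed it, and in cluster 2 Cd81 was lower in the implanted library. In the whole class Lgals1 had 5.76 and 2.01 CPM, on 28 and 11 UMIs. Lgals3 (ratio 1.13), Cd63 (1.08), Cd82 (1.03), Cd53 (0.985), Cd37 (0.970), Cd9 (0.958) and Lgals9 (0.835) all stayed within the 1.5-fold bound. Both calls lay near the bound: Cd81 passed it in 12 of 19 alternatives and Lgals1 in 13 of 17, and 0 members passed it with no doublets removed, a pseudocount of 20 CPM or a fold of 2. The median log2 ratio was 0.04, beside 0.01 for all genes.

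In monocyte-like cells 0 of the 7 members with enough UMIs passed the bound in either direction, with 3.35% of 9249 genes higher and 3.04% lower. Lgals3 had a ratio of 1.06 (1.01 to 1.11), Lgals1 0.975 (0.879 to 1.08), Cd53 0.964 (0.875 to 1.06), Lgals9 1.00 (0.807 to 1.24), Cd9 1.05 (0.751 to 1.48), Cd37 1.15 (0.89 to 1.5) and Cd82 1.13 (0.709 to 1.81). Cd63 and Cd81 were under the minimum of 20 UMIs, and 1 implanted cell held 25.6% of the Cd9 UMIs. The median log2 ratio was 0.07, beside -0.0025 for all genes.

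In macrophage-like cells 4 of 9 members were higher in the implanted library and 0 lower, with 8.96% of 9744 genes higher and 9.0% lower, and nothing is read from the excess because the list was chosen with this contrast known. Lgals3 had a ratio of 5.25 (4.90 to 5.64), the largest of the 9. Cd9 stood at 953 CPM (908 to 1000) against 360 CPM (330 to 393), a ratio of 2.65 (2.39 to 2.93). Cd63 stood at 528 CPM (494 to 563) against 269 CPM (243 to 298), a ratio of 1.96 (1.74 to 2.22), and Lgals1 at 574 CPM (539 to 610) against 325 CPM (296 to 356), a ratio of 1.77 (1.58 to 1.98). For these 4 genes the intervals of the libraries lay apart. The median log2 ratio of the members was 0.23, beside -0.01 for all genes.

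The other 5 members stayed within the bound in macrophage-like cells. Lgals9 had 103 and 98.9 CPM, Cd37 102 and 86.2, Cd53 405 and 379, Cd81 283 and 333, and Cd82 56.2 and 69.2. Cd81 had a ratio of 0.848 (0.746 to 0.964) and Cd82 one of 0.812 (0.608 to 1.08). The log2 ratio of Cd81 was -0.23 and ranged from -0.39 to 0.19 over 21 alternatives, so its sign depended on the processing.

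**Figure D3:**
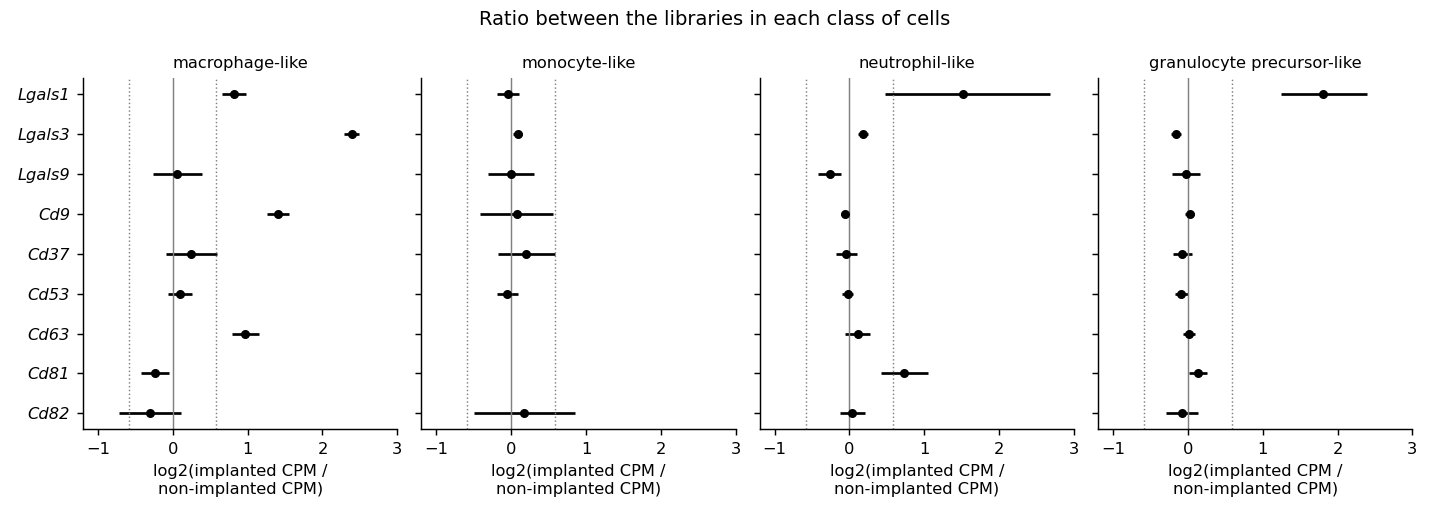
Points give the log2 ratio of CPM, implanted over non-implanted, for each gene in 4 classes, with exact 95% intervals as bars, a solid line at 0 and dotted lines at the 1.5-fold bound. In macrophage-like cells Lgals3, Cd9, Cd63 and Lgals1 lie past the right dotted line (ratios 5.25, 2.65, 1.96 and 1.77), whereas the 7 points of monocyte-like cells lie inside the lines. Cd63 and Cd81 had under 20 UMIs in monocyte-like cells and are not drawn there.

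The macrophage-like class was made of 3 clusters, and the differences between libraries were not spread evenly over them. Cluster 9, led by MHC class II genes and Mrc1, held 113 implanted and 156 non-implanted cells. Cluster 12, led by Retnla, C1qa and Apoe, held 98 and 79 shallow cells with medians of 1003 and 1107 UMIs. Cluster 17 held 63 implanted and 3 non-implanted cells, and its leading genes included Mmp12, Spp1, Gpnmb and Arg1. A cluster of which 95.5% of the cells come from 1 library may reflect that library and not a cell type. The member genes were kept out of the genes used for clustering, but genes that vary with them were used, so levels by cluster are descriptions.

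In the implanted cells of cluster 17, Lgals3 reached 6874 CPM, against 1250 CPM in the implanted cells of cluster 9, a ratio of 5.50 (5.15 to 5.87). Cd9 reached 1699 against 338 CPM (ratio 5.03, 4.43 to 5.73), Cd63 862 against 283 CPM (3.05, 2.63 to 3.55) and Lgals1 918 against 316 CPM (2.90, 2.52 to 3.35). Cd81 went the other way, with 125 CPM in cluster 17 and 353 CPM in cluster 9 (0.353, 0.275 to 0.449). Cd82 was also lower, at 38.7 against 63.9 CPM (0.606, 0.369 to 0.974), as was Lgals9, at 83.2 against 120 CPM (0.694, 0.495 to 0.963). Cd53 had 430 and 363 CPM and Cd37 116 and 86.4 CPM. The 3 non-implanted cells of the cluster held 38 UMIs of Lgals3 (2653 CPM), 11 of Cd63, 10 of Cd9, 3 of Lgals1 and 0 of Cd81.

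Levels of single cells, given for those with at least 1000 UMIs, varied widely within cluster 17. The quartiles of Lgals3 over its 58 implanted cells were 1685, 2979 and 7456 CPM, and those of Cd9 were 508, 1083 and 2142 CPM. Cluster 9 had quartiles of 0, 489 and 1114 CPM for Lgals3 in 113 implanted cells, and 0, 350 and 907 CPM in 155 non-implanted cells. Over the 58 cells of cluster 17, Lgals3 went with Cd9 (Spearman rho 0.61) and with Cd63 (0.50), but Cd63 also went with the number of UMIs per cell (0.65), and these cells share 1 library. Lgals1 and Cd63 had a rho of 0.014 across the same cells.

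**Figure D4:**
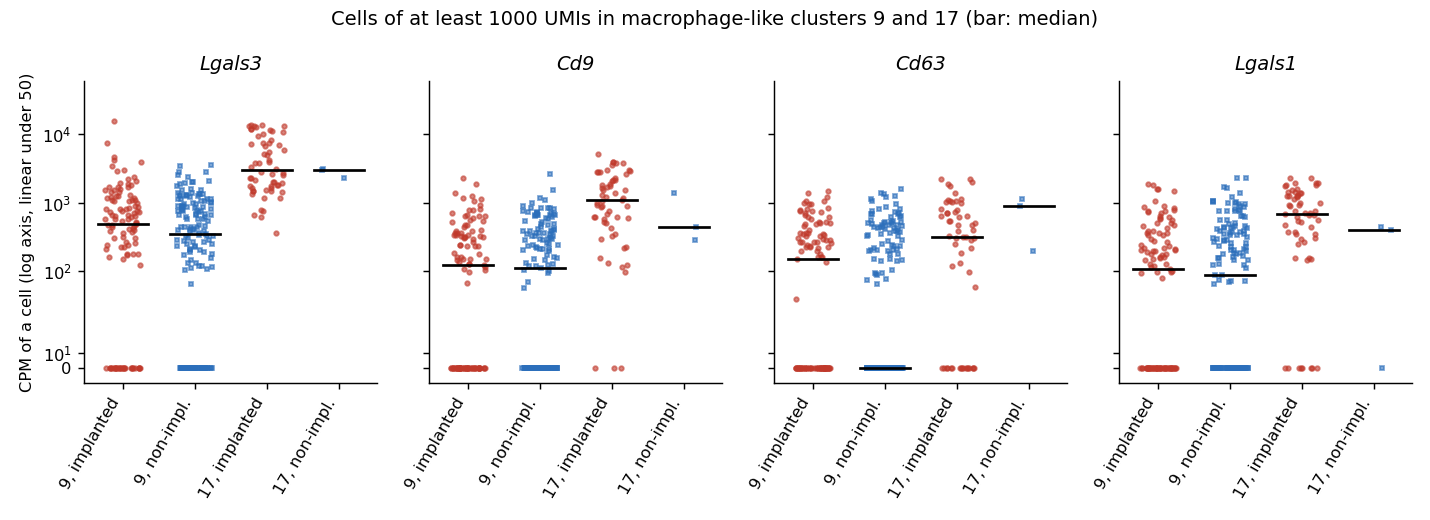
Each point is 1 cell of at least 1000 UMIs in macrophage-like cluster 9 or 17, plotted by its CPM on an axis that is logarithmic above 50 and linear below, with bars at the medians, for 4 genes. For Lgals3 the implanted median is 2979 CPM in cluster 17 and 489 CPM in cluster 9, but the cells overlap. The highest of the cells drawn (15386 CPM) is an implanted cell of cluster 9.

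Within cluster 9, which both libraries share, 8 of the 9 members stayed within the 1.5-fold bound, and Lgals3 was higher in the implanted library, with 7.55% of 8774 genes higher and 7.57% lower. Lgals1 had 316 and 321 CPM (ratio 0.985, 0.843 to 1.15), Cd9 338 and 285 CPM (1.18, 1.01 to 1.38), Cd63 283 and 244 CPM (1.16, 0.977 to 1.38) and Cd81 353 and 313 CPM (1.13, 0.970 to 1.31). Lgals3 had 1250 and 607 CPM, a ratio of 2.06 (1.88 to 2.26), but 1 implanted cell held 29.5% of the implanted UMIs. Without the cell with the most Lgals3 in each library, the levels were 903 and 593 CPM and the ratio 1.52 (1.37 to 1.69). In cluster 12, Lgals3 had 814 and 816 CPM (ratio 0.998, 0.785 to 1.27), Cd9 1120 and 862 CPM (1.30, 1.04 to 1.62) and Lgals1 514 and 362 CPM (1.42, 1.02 to 1.99). Among the implanted cells of cluster 12 with at least 1000 UMIs, 1 had 27821 CPM of Lgals3 and the next 4175 CPM. The implanted Lgals3 level there thus rests in part on 1 cell.

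With cluster 17 left out of the class, 1 of 9 members was higher and 0 lower, with 6.15% of 9100 genes higher and 6.32% lower: the log2 ratio of Lgals3 was 0.89, that of Cd9 0.38, that of Cd63 0.22 and that of Lgals1 0.09. When the cell with the most UMIs of the gene in each library was also left out, a setting chosen after the data were seen, 0 of 9 passed it and Lgals3 stood at 0.51. Leaving out cluster 17 lowers the ratios of genes that are high in it by construction.

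**Figure D5:**
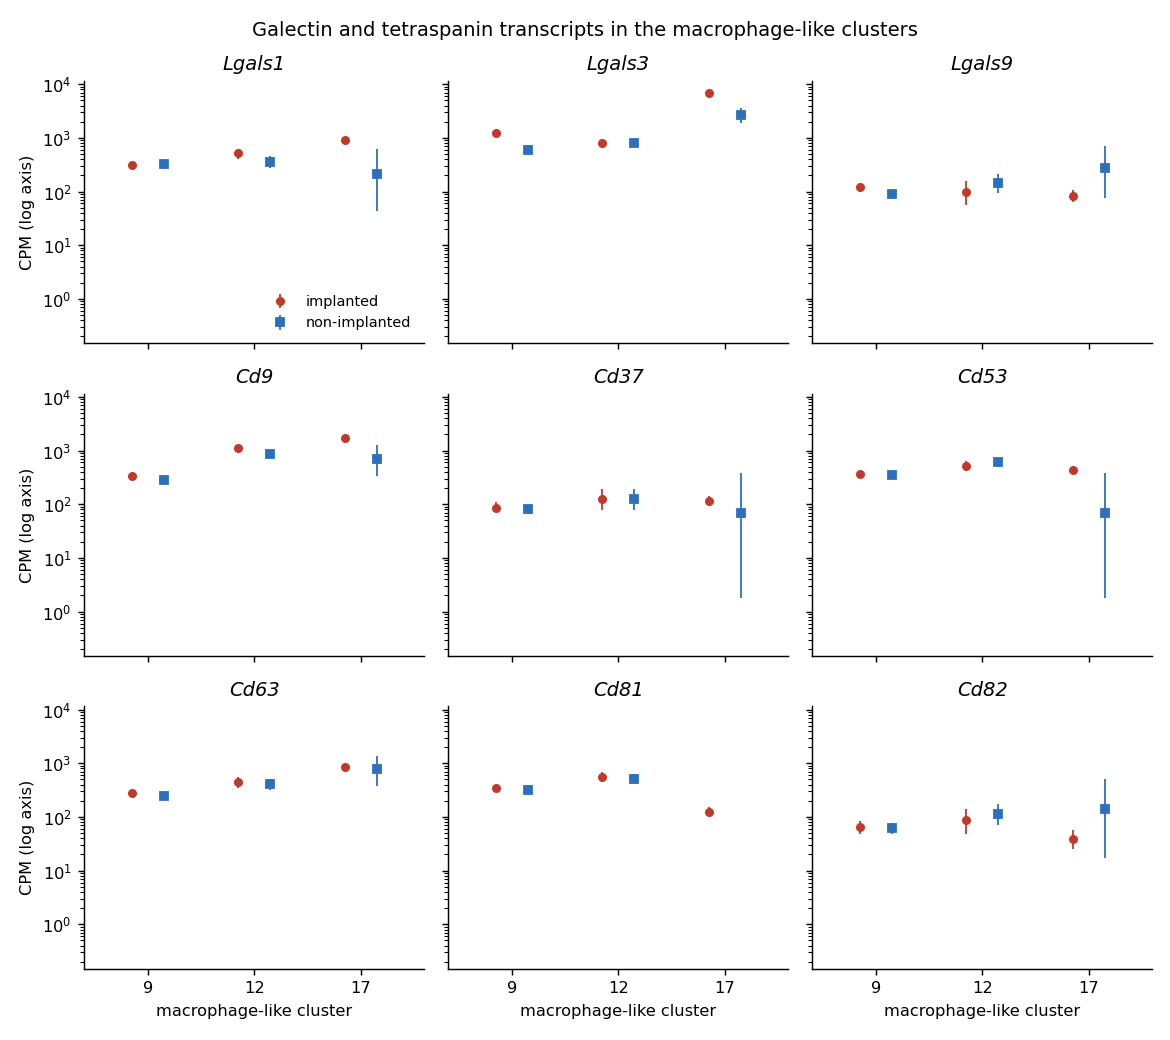
Each panel plots the level of 1 gene as CPM on a log axis for macrophage-like clusters 9, 12 and 17, with circles for implanted, squares for non-implanted and bars for exact 95% Poisson intervals. Squares of cluster 17 rest on 3 cells, and Cd81, with 0 UMIs there, has no square. Lgals3 in implanted cells goes from 1250 CPM in cluster 9 to 6874 CPM in cluster 17, and Cd81 from 353 to 125 CPM.

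Macrophage-like cells also held RNA typical of granulocytes, and this differed between the libraries. S100a8, a neutrophil calprotectin gene, had 18395 CPM in implanted and 28779 CPM in non-implanted macrophage-like cells, 16.8% and 26.8% of the neutrophil-like level. All 14 of the 14 neutrophil markers were detected in the class, with summed shares of 4.31% and 6.40% of UMIs. At those S100a8 shares, neutrophil-like RNA would bring 205 and 341 CPM of Cd9, of 953 and 360 CPM measured. The non-implanted Cd9 level was close to that amount, which takes all S100a8 as neutrophil-like RNA and allows for no precursor-like RNA. It would bring 116 and 164 CPM of Lgals3, of 3432 and 653 CPM measured. For Cd63 it would bring 19.7 and 29.1 CPM, for Cd81 7.07 and 6.79 CPM and for Lgals1 0.965 and 0.537 CPM, small parts of the measured levels. The parts were larger for the remaining members. For Cd37 they were 26.4 and 43.5 CPM, of 102 and 86.2 CPM measured, and for Cd53 98.3 and 159 CPM, of 405 and 379 CPM. For Cd82 they were 18.9 and 29.5 CPM, of 56.2 and 69.2 CPM, and for Lgals9 21.1 and 40.3 CPM, of 103 and 98.9 CPM. In cluster 17 the implanted cells had 12414 CPM of S100a8, which corresponds to 138 CPM of Cd9, of 1699 measured. In cluster 9 the S100a8 shares were 13.5% and 22.9%. The corresponding Cd9 was 164 and 291 CPM, of 338 and 285 CPM measured. The non-implanted level was no higher than that amount, which again takes all S100a8 as neutrophil-like RNA. These cells also held Camp, a gene high in precursor-like clusters, at 3905 and 7426 CPM. Precursor-like cells held 566 and 557 CPM of Cd9, against 1220 and 1273 CPM in neutrophil-like cells. A precursor-like share was not computed, so these Cd9 amounts may be too high. In cluster 12 the S100a8 shares were 55.7% and 54.3%, and the corresponding Cd9 was 679 and 691 CPM, of 1120 and 862 CPM measured. The corresponding Lgals3 of cluster 12 was 386 and 332 CPM, of 814 and 816 CPM measured. Monocyte-like cells had S100a8 at 2.45% and 1.40% of the neutrophil-like level, which corresponds to 29.9 and 17.8 CPM of Cd9, of 45.0 and 42.8 CPM measured. B cell-like cells had S100a8 at 0.418% and 16.3% of that level. This corresponds to 2.90 and 99.4 CPM of Lgals3, of 45.3 and 178 CPM measured. For Cd9 in non-implanted B cell-like cells the corresponding 207 CPM was above the 86.0 CPM measured. How this RNA reached the cells was not tested.

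Other genes of these families and their partners were read from lists that were also compiled with earlier results known. A list of 10 further genes held other galectins and Lgals3bp, which encodes a galectin-binding glycoprotein and is no galectin. Of its genes 8 were found in the matrices and 2 had enough UMIs in macrophage-like cells. These were Lgals8 (36.9 and 44.5 CPM), a galectin sensor of damaged vesicles, and Lgals3bp (128 and 117 CPM), and 0 passed the bound in either direction. Of 25 other tetraspanins 10 had enough UMIs, and 3 were higher and 3 lower. Beside these counts, 8.96% of all 9744 genes of the class were higher and 9.0% lower. The higher ones were Tspan17, at 31.2 against 7.06 CPM, Cd151, an integrin partner, at 23.3 against 12.7 CPM, and Tspan5, at 125 against 79.1 CPM. The lower ones were Tspan33, at 15.9 against 30.4 CPM, Tspan32, at 20.4 against 36.7 CPM, and Tspan3, at 58.5 against 97.5 CPM. The list median log2 ratio was 0.03. The listed genes past the bound went in both directions, no intervals are given for them, and nothing is read from the counts.

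Of 20 measured tetraspanin partners 4 were higher and 2 lower in implanted macrophage-like cells. Of all 9744 genes of the class 8.96% were higher and 9.0% lower, which stands beside each count in this paragraph. Cd36, a scavenger receptor gene, had 446 against 142 CPM (ratio 3.14, 2.68 to 3.68), the hyaluronan receptor gene Cd44 had 944 against 393 CPM (2.40, 2.18 to 2.65), the integrin gene Itgb2 had 419 against 201 CPM (2.09, 1.82 to 2.40) and Hbegf had 27.8 against 15.5 CPM. The MHC class II genes H2-Aa (3933 against 6896 CPM) and Cd74 (10243 against 18138 CPM) were lower. Within clusters the libraries differed less in H2-Aa, with 6915 and 7489 CPM in cluster 9 and 2736 and 3251 CPM in cluster 12. Cluster 17 had 415 CPM in 63 implanted cells and 419 CPM in 3 non-implanted cells, so the class value also follows the cells of that cluster. Of 16 measured galectin partners 3 were higher and 0 lower: Trem2 with 780 against 280 CPM (ratio 2.78, 2.49 to 3.12), Cd44 again, and P4hb with 187 against 116 CPM. Of 10 lysosome membrane genes 3 were higher and 0 lower, namely Gpnmb with 1392 against 44.5 CPM, Cd68 with 654 against 328 CPM and the cholesterol transporter gene Npc1 with 93.7 against 56.5 CPM. Gpnmb leads cluster 17, so its value follows the cells of that cluster. The class ratios of the other listed genes, Cd36, Cd44, Itgb2 and Trem2 among them, also include the 63 implanted and 3 non-implanted cells of cluster 17. Whether they hold within clusters is not given here.

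In the other classes, where smaller shares of all genes passed the bound, the same lists gave these counts. In granulocyte precursor-like cells 0 genes of the 5 lists passed the bound. In neutrophil-like cells, with 1.68% of 9061 genes higher, 2 of 16 tetraspanin partners and 1 of 10 lysosome membrane genes were higher. These were Itga6 (11.1 against 5.29 CPM), Icam1 (39.9 against 18.2 CPM) and Gpnmb (9.25 against 0.547 CPM, on 45 and 3 UMIs). Gpnmb was at 3406 CPM in the implanted cells of cluster 17, and whether its UMIs here are RNA of those cells was not tested. In monocyte-like cells, with 3.35% of 9249 genes higher and 3.04% lower, 3 of 18 tetraspanin partners were higher and 1 lower. Cd36 (48.8 against 26.3 CPM), Itga5 (68.1 against 31.6 CPM) and Itga6 (10.4 against 5.26 CPM) were higher. Ptgfrn, a direct partner of CD9 and CD81, was lower at 9.88 against 19.1 CPM. The genes named for these classes were picked after their values were seen.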

How the data were processed

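Deposited counts are whole-number UMIs (unique molecular identifiers) per gene and barcode, not normalized, made with Cell Ranger, version 3.0.1 per the file headers. Seurat and the builds mm10 and GRCm38 are also named, per the submitters' processing notes. For the aligner and the gene annotation, nothing is given in the sources used here. The labels' extraction protocol describes other ages and another tissue than the series design text and was not used. The 107 rows that name no gene held 22 UMIs in all and were left out.

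Barcodes with under 200 genes or over 10% mitochondrial UMIs were left out (82 of 3231 implanted and 59 of 3572 non-implanted), then 84 and 102 cells with the highest Scrublet scores, 0.8% per 1000 barcodes. Cells were clustered together (scanpy 1.11.5, 2000 variable genes without the members, 30 components, 15 neighbours, leidenalg 0.10.2 at resolution 1), giving 19 clusters, named from marker lists of 25 types by the mean of a type's 8 highest scaled markers (20th percentile of clusters to the highest cluster), a score settled after the clusters were seen. UMIs were summed per class and library. Classes with at least 100 cells per library were compared by the log2 ratio of CPM plus 5 for genes with at least 20 UMIs, with a bound of 1.5-fold. No test was made with 1 library per group. Intervals are exact (Poisson, and conditional for ratios). The ratio script was tested on simulated data. Members and lists were chosen with earlier results of these data known. The named genes were the members and, in each list, up to 4 genes past the bound in each direction in macrophage-like cells or the highest in CPM, plus the genes most like a member and class markers. Alternatives covered filters, doublets, clustering, pseudocount, minimum, depth and scaling by edgeR 4.0.16 in R 4.3.3. Their clusters took the class that held most of their cells. Scripts ran in Python 3.11.15 with matplotlib 3.10.9, scikit-learn 1.9.0, pandas 2.3.3, scipy 1.17.1 and numpy 2.4.6.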

Additional observations from a re-analysis of the deposited data

How the results depend on the processing

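No paired analysis was possible because there is 1 library per group. Each value was recomputed under 19 alternatives chosen earlier and 3 chosen after the data were seen, though not every alternative applies to every value. Of the 666 recomputed log2 ratios of single members, 591 stayed inside the counting interval of the reported ratio. No call was reversed, but only values of members past the bound in the reported result could reverse one. Signs did change among the other values. Cd81 in macrophage-like cells kept its sign in 16 of 21 alternatives, and Cd9 in monocyte-like cells in 11 of 20. In macrophage-like cells the members higher were 2 with a fold of 2, 1 without the cluster that came almost wholly from 1 library, and 0 when the cell with the most UMIs of each gene was also left out, beside 4 reported. The log2 ratio of Lgals3 there ranged from 0.51 to 2.75, that of Cd9 from 0.36 to 4.94, that of Cd63 from 0.22 to 1.19 and that of Lgals1 from 0.09 to 0.87. Subtracting neutrophil-like RNA in proportion to S100a8 moved the median log2 ratio of the members from 0.23 to 0.76. It gave the upper end for Cd9, because little non-implanted Cd9 was left. That setting took all S100a8 as neutrophil-like RNA. Precursor-like cells held less Cd9 (566 and 557 CPM) than neutrophil-like cells (1220 and 1273 CPM), so the setting may remove too much Cd9.

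In neutrophil-like cells the members higher were 0 with no doublets removed, a pseudocount of 20 CPM or a fold of 2. They were 1 with no cell filter, the stricter cell filter, Leiden resolution 0.5, more variable genes and components, members allowed as variable genes, at least 100 UMIs, the same weight for every cell, cells thinned to 1000 UMIs, and without the cell with the most UMIs. In granulocyte precursor-like cells Lgals1 was no longer past the bound with a pseudocount of 20 CPM (0 members). In monocyte-like cells the members higher were 4 with each library clustered on its own. They were 1 with the stricter cell filter, more variable genes and components or members allowed as variable genes. The members lower were 1 with Leiden resolution 0.5 or thinning, beside 0 reported. Of the 7 members counted in the reported result, only Cd9 (in 2 of 20 alternatives) and Cd82 (in 1 of 18) passed the bound. The count of 4 thus includes Cd63 and Cd81, which were under 20 UMIs in the reported result. The share of all genes past the bound was not computed under the alternatives. The cause of these changes was not tested. Depth limits Lgals1 in granulocytes and Cd63 and Cd81 in monocyte-like cells, which rest on few UMIs.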
